A study of Juglans regia with 21 samples.

Results

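The pellicle is the thin seed coat that wraps the walnut kernel. It is maternal tissue, and it carries much of the nut's phenolic content. The comparison described here sets pellicles of *Juglans regia* cultivar Xinwen179 collected 15 weeks after pollination (15W) against pellicles collected 13 weeks after pollination (13W). Each stage had 3 libraries, chosen by the stage in their labels, and these 6 were taken from 21 libraries over 7 stages. Both stages came from trees of the same cultivar grown in a field, with no treatment named, and poly(A) RNA was sequenced in read pairs with a strand-specific kit. Read counts of 31425 genes were deposited, and 21707 of them had enough reads to be tested. Genes are described by the product names given to them in the deposited table.

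The 15W libraries held 13943709, 15033035 and 14303774 reads, and the 13W libraries 15001597, 14362377 and 15030356. Spearman correlations across genes were 0.993 to 0.995 within 15W, 0.991 to 0.994 within 13W and 0.95 to 0.957 between the stages. Whether the 3 libraries of each stage are from different trees is not stated in the labels, and the p-values therefore reflect variation among libraries that could be technical. The labels also give neither the hour nor the temperature at harvest, so stage and the conditions of the harvest day cannot be told apart. The second 15W library was the highest of its stage in heat shock transcripts and the third 13W library in kernel storage transcripts, and values without them are given where they matter. Levels are in CPM, read counts scaled to a common library size after TMM normalization. Changes are log2 ratios of 15W over 13W from edgeR's quasi-likelihood test, with Benjamini-Hochberg adjusted p-values over all genes tested, and a gene is said to have risen or fallen where the adjusted p was under 0.05.

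Several of the groups below are textbook responses. Heat shock factors are transcription factors that switch on chaperones, and the chaperones hold unfolding proteins (small heat shock proteins), refold them (HSP70 with its DnaJ partners) or mature them (HSP90). When oxygen runs short, plant cells run glycolysis faster and regenerate its cofactor by turning pyruvate into ethanol through pyruvate decarboxylase and alcohol dehydrogenase, and dense seeds are known sites of low oxygen. The circadian clock is a loop of morning and evening repressors whose transcripts cycle over the day.

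Transcripts of heat shock proteins, their regulators, fermentation enzymes, wall-building enzymes and abscisic acid genes were higher at 15W in a larger share of members than genes at large. The fermentation group was drawn up after the values of this comparison had been seen, so its larger share is not an independent result. The other lists and families were chosen with earlier results of these data known. Cytosolic ribosomal proteins, proteasome subunits, clock genes, sucrose and starch genes and gibberellin, jasmonate and auxin genes were lower in a larger share. Of the 21707 genes, 11086 (51.1%) passed the test: 5381 (24.8%) rose and 5705 (26.3%) fell at 15W relative to 13W. At least a 2-fold change was reached by 1529 genes that rose (7.04%) and 1749 that fell (8.06%), and at least 4-fold by 455 and 565. The libraries of the stages did not overlap in 6297 genes that were higher at 15W (29.0%) and 6641 that were lower (30.6%). The median log2 change over all genes tested was -0.0224.

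With shares this large, a group is described by how far its own counts lie from these background shares, and that distance was not tested. In bulk tissue, fewer cells of a type and less RNA per cell cannot be told apart, and this applies to each group below. The plot of lists gives the share of members that rose and fell beside the background.

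**Figure D1:**
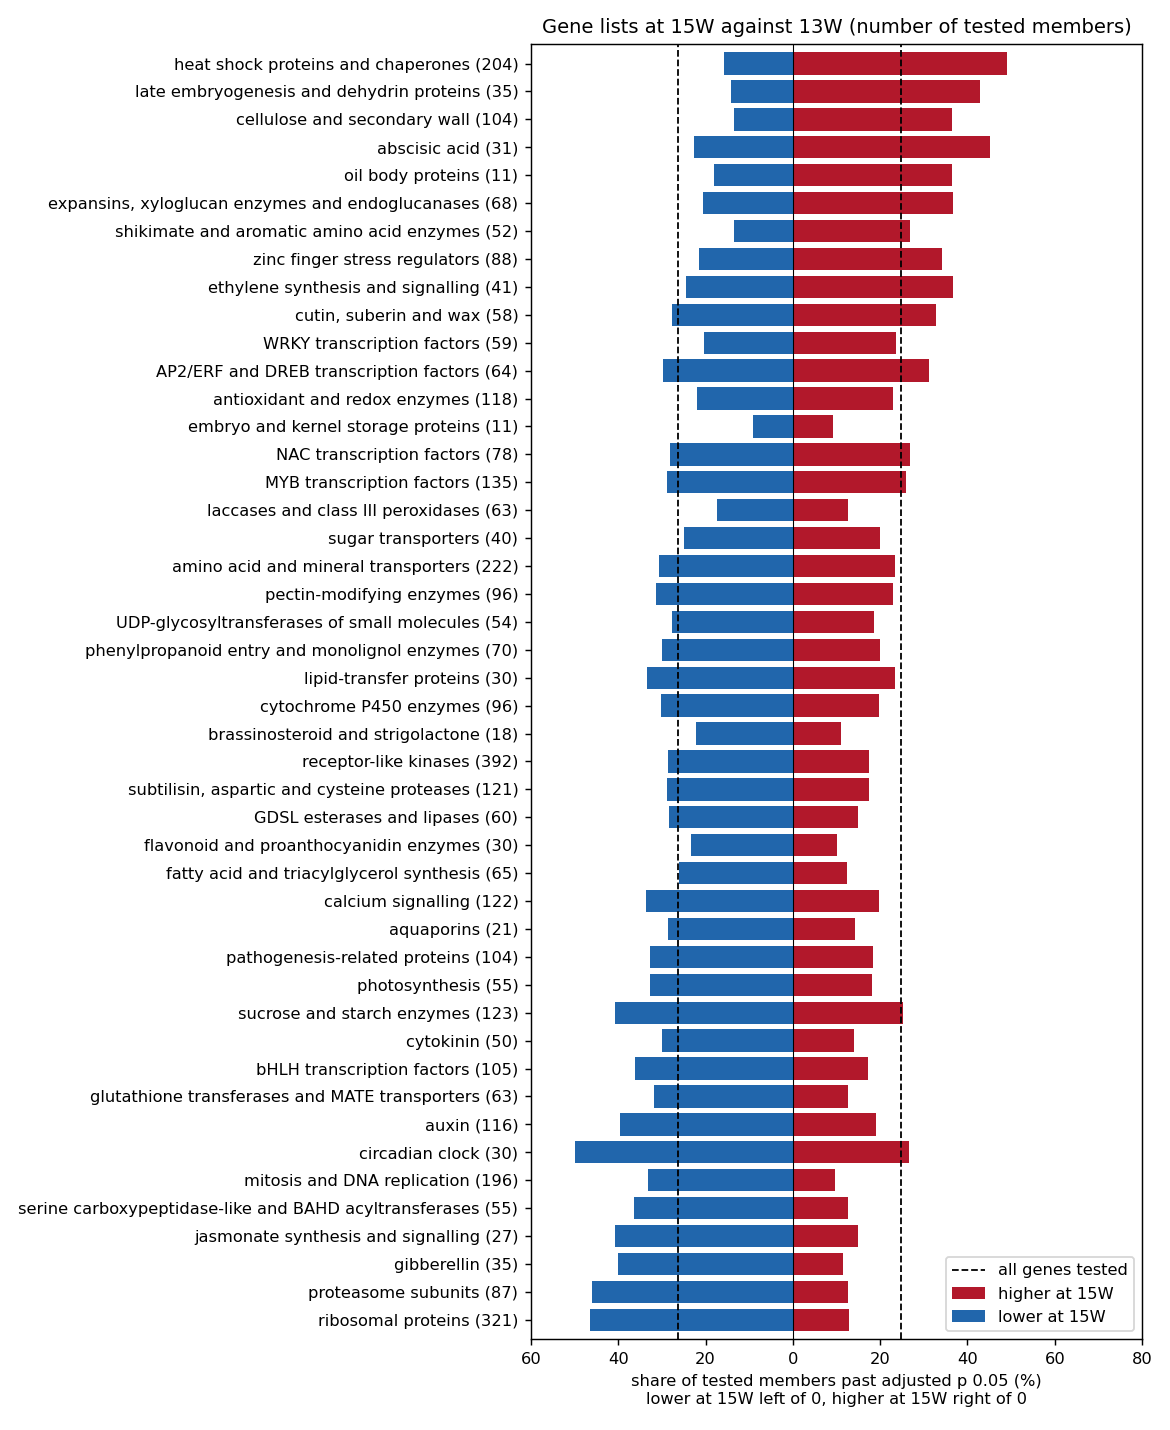
Share (%) of tested members of each gene list with at least 10 tested members that were higher (right, red) or lower (left, blue) at 15W than at 13W at adjusted p under 0.05, with the number tested in brackets and the shares over all genes tested (24.8% and 26.3%) as dashed lines. Heat shock proteins and chaperones lie at the top with 100 of 204 members higher, and ribosomal proteins at the bottom with 149 of 321 lower.

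The tissue label was checked first, since a thin coat can carry kernel with it. Transcripts of proanthocyanidin enzymes, which make the tannins of seed coats, were read at both stages but did not move together. An anthocyanidin reductase (Jr5DG00075400) had 73.9, 102 and 94 CPM in the 15W libraries, against 43.6, 44.4 and 57 CPM in the 13W libraries, a log2 change of 0.90 (SE 0.13, adjusted p = 6.23e-06). A dihydroflavonol reductase (Jr4DG00161700) fell, with 27 ± 3.31 CPM at 15W, against 55.3 ± 2.57 at 13W (SD, n = 3 each), and so did a leucoanthocyanidin reductase (Jr8SG00002900; log2 change -1.31). Kernel storage transcripts were also present at both stages. Their summed level was 8934, 12070 and 8796 CPM at 15W, against 4333, 6572 and 14510 CPM at 13W. The third 13W library held the highest sum of all 6, so the groups overlapped. Of 11 storage genes tested 1 rose and 1 fell, and the median log2 change was 0.103. No storage gene rose when the first or second 13W library or any 15W library was left out. The same held with library sizes alone, with no filter beyond 1 read and with a replicate block. With the 6 libraries alone 3 rose, and in the non-robust fit 4. Without the third 13W library 4 rose, among them a 48-kDa glycoprotein precursor (Jr4SG00109000) with a log2 change of 1.76 (edgeR adjusted p = 1.67e-05). Its levels were 346, 338 and 313 CPM at 15W, against 90.2, 106 and 352 CPM at 13W.

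Markers of maturing seed were higher at 15W in part. Of 35 late embryogenesis and dehydrin genes, whose products protect drying cells, 15 rose and 5 fell, and the median log2 change was 0.382. A late embryogenesis abundant protein (Jr4SG00137400) had 239.9, 263 and 244 CPM at 15W, against 95.5, 64.2 and 106 CPM at 13W, with no overlap (log2 change 1.49, SE 0.18, adjusted p = 2.72e-06). Dehydrins with many reads split. ERD14 (Jr4DG00147900) had 2156 ± 129 CPM at 15W, against 1387 ± 120 at 13W (SD, n = 3 each). Dehydrin 2 (Jr4SG00068600) was lower, with 701 ± 58.1 CPM at 15W, against 1024 ± 191 at 13W. Of 11 oil body genes 4 rose and 2 fell, and an oleosin (Jr2DG00039300), a coat protein of oil droplets, had 289, 287 and 269 CPM at 15W, against 58.7, 89.4 and 147 CPM at 13W. Its log2 change was 1.52 (SE 0.34, adjusted p = 0.00169). An oleosin with more reads (Jr4SG00041800) was nearly even, with 375 ± 21.9 CPM at 15W, against 362 ± 62 at 13W (SD, n = 3 each). Genes named 11-beta-hydroxysteroid dehydrogenase split. Jr6SG00010800 was lower, with 13.4 ± 2.04 CPM at 15W, against 26.8 ± 2.69 at 13W, and Jr2SG00010500 was higher, with 73 ± 12.3 CPM, against 42.4 ± 4.14. Without the third 13W library 16 late embryogenesis genes and 4 oil body genes rose. The part of kernel tissue in these values was not tested.

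Heat shock genes rose in the largest share of members among the 47 lists drawn up by function. Of 204 tested heat shock and chaperone genes 100 rose (background 24.8%) and 32 fell (background 26.3%). Their median log2 change was 0.345, against -0.0224 over all genes tested, and 47 rose at least 2-fold while 7 fell as far. The second 15W library was the highest of the 3 in the summed level of the list, which was 16360, 18820 and 16950 CPM at 15W, against 12440, 12910 and 12930 CPM at 13W. Without that library 97 members rose and 33 fell.

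Among the regulators, 12 of 24 heat shock factors rose and 5 fell. HSFA2 (Jr8DG00033600, chromosome 8D, 4251341 to 4252982), the heat-inducible factor that prolongs the response in *Arabidopsis*, had 327, 374 and 325 CPM in the 15W libraries, against 10.8, 9.46 and 10.5 CPM in the 13W libraries. All 3 libraries at 15W lay far above all 3 at 13W, and the log2 change was 5.06 (SE 0.29, adjusted p = 7.6e-10), a fitted level 33.3-fold higher. HSFA3 (Jr5SG00004800), an amplifier of the same response, had 35.5, 37.1 and 36.1 CPM at 15W, against 7.4, 5.72 and 7.95 CPM at 13W (log2 change 2.36). The constitutive factors did not move as one. HSFA1 (Jr3DG00204300), of the class that starts the response, fell to 73.7 ± 2.71 CPM at 15W, against 95.2 ± 1.67 at 13W (SD, n = 3 each; log2 change -0.37), whereas HSFA1a (Jr3SG00155300) rose, with 20 ± 4.26 CPM at 15W and 10.9 ± 0.814 at 13W. The repressor-type factors also split: one HSFB2a gene (Jr6DG00145100) rose (log2 change 1.30) and another (Jr2DG00095000) fell (log2 change -0.98).

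Small heat shock proteins, which bind unfolding proteins without ATP, changed most. Of 32 genes tested 25 rose and 3 fell, 23 of those that rose by at least 2-fold, and the median log2 change was 3.49. Their summed level was 1464, 2428 and 1637 CPM at 15W, against 281.7, 316.9 and 260.3 CPM at 13W. The lowest 15W library thus lay far above the highest 13W library, and the second 15W library stood above the other two. Without it 23 genes rose and 3 fell. Of the tested genes, 10 sit together on chromosome 7D between 7754370 and 7908275, and all 10 rose, with log2 changes of 2.85 to 7.51. Neighbouring copies of this kind may share reads, so the split between them is uncertain. Their sum was 867.4 CPM at 15W, against 46.4 at 13W. The member with the most reads, a class I protein (Jr7DG00080500), had 263, 429.8 and 316 CPM at 15W, against 26.2, 24.6 and 32.1 CPM at 13W (log2 change 3.60, SE 0.19, adjusted p = 1.09e-10).

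The largest change in this family was that of a 17.6 kDa class I gene (Jr7DG00080100), with 21.3, 58.7 and 25.8 CPM at 15W, against 0.0685, 0.494 and 0 CPM at 13W. Its log2 change of 7.51 rests on few reads at 13W, and was 6.92 without the second 15W library and 9.69 without the second 13W library. A second group of 3 genes, on chromosome 8D between 15487536 and 15506814, also rose throughout. Its class II member (Jr8DG00091000) had 56.5, 128 and 65.5 CPM at 15W, against 1.44, 0.847 and 1.74 CPM at 13W, and again the second 15W library was highest. Neighbours on chromosome 7S were mixed. Jr7SG00072200 and Jr7SG00072700 rose (log2 changes 3.80 and 3.54), Jr7SG00072500 and Jr7SG00072600 fell (-1.13 and -1.67), and Jr7SG00072800 did not pass the test (0.60). Of these, the 18.1 kDa class I gene Jr7SG00072500 had 12.9 ± 6.54 CPM at 15W, against 28.3 ± 2.19 at 13W (SD, n = 3 each). Its fall lost its call when the 6 libraries were fitted alone (edgeR adjusted p = 0.0891).

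The larger chaperones moved less. Of 14 HSP70 genes 9 rose and 1 fell, and the median log2 change was 0.42. The exception in size was an HSC70-2-like gene (Jr3SG00031500), with 19, 20.4 and 19.9 CPM at 15W, against 2.33, 2.19 and 2.09 CPM at 13W (log2 change 3.16, SE 0.24). HSP90 genes split, with 2 of 7 rising and 3 falling. HSP83 (Jr3DG00241100), an HSP90 of the heat-inducible type, had 74.2, 174 and 96.6 CPM at 15W, against 6.1, 6.07 and 6.9 CPM at 13W, with no overlap and a log2 change of 4.18 (SE 0.37, adjusted p = 1.64e-07). A second HSP90 (Jr6DG00204500) fell, with 95.4 ± 12.2 CPM at 15W, against 152 ± 8.27 at 13W (SD, n = 3 each), so that the summed HSP90 level was nearly even, at 670 ± 103.9 CPM at 15W, against 631.3 ± 18.4 at 13W.

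Partners of HSP70 and HSP90 followed in part. Of 91 DnaJ genes 40 rose and 18 fell, led by plastid DnaJ8 (Jr1DG00263400), with 203, 216 and 203 CPM at 15W, against 24.5, 22 and 29.6 CPM at 13W (log2 change 3.03). A plastid DnaJ11 gene (Jr3DG00068300) went the other way, with 2.83, 3.05 and 3.49 CPM at 15W, against 55.9, 51 and 42.8 CPM at 13W, a fitted level 15.9-fold lower. The organizing protein HOP3 (Jr6DG00155300), which hands clients from HSP70 to HSP90, had 185 ± 19.3 CPM at 15W, against 77.9 ± 4.33 at 13W (SD, n = 3 each; log2 change 1.25). The co-chaperone BAG6 (Jr3DG00094600) had 8.49, 48 and 13.1 CPM at 15W, against 2.4, 2.68 and 3.62 CPM at 13W. The rise rests largely on the second 15W library, without which the log2 change was 1.89, and its call was lost when the 6 libraries were fitted alone (edgeR adjusted p = 0.0509). Of 16 chaperonins, the barrel-shaped folding machines of plastids and mitochondria, 4 rose and 1 fell, close to the background for rises and below it for falls.

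**Figure D2:**
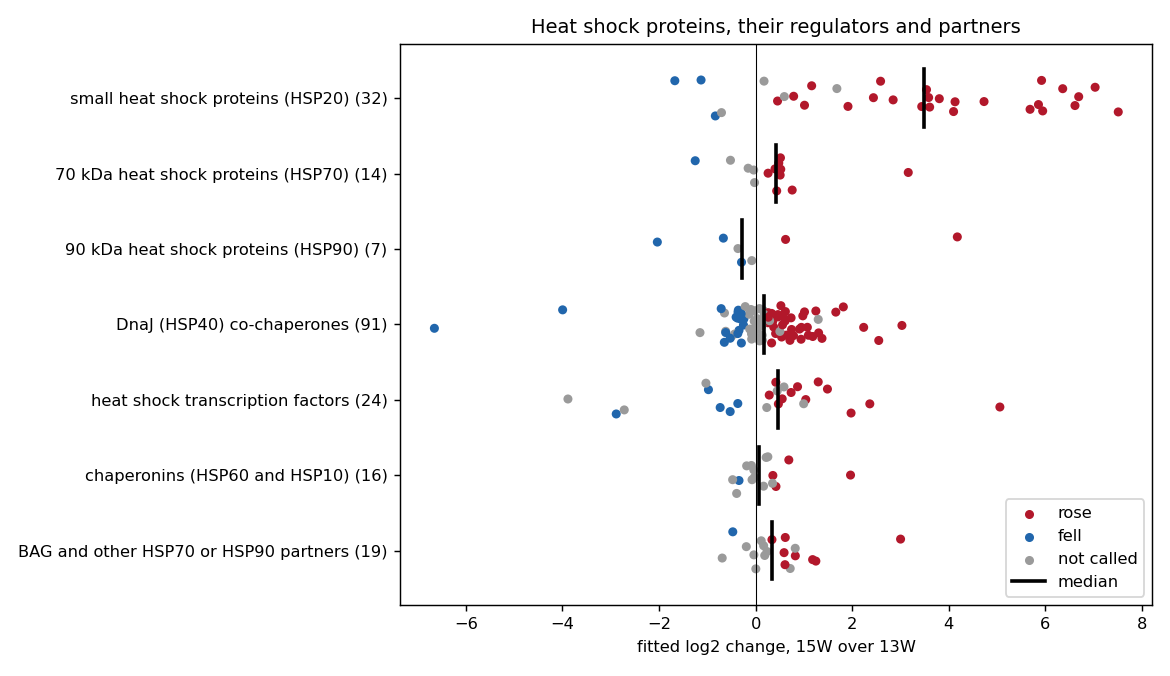
Fitted log2 change of 15W over 13W (x axis) of each tested gene of 7 families within the heat shock list (rows), coloured by whether it rose, fell or did not pass the test, with the family median as a black bar. The small heat shock proteins spread far to the right of 0 with a median of 3.49, while the medians of the other families lie between -0.291 and 0.46.

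Genes of ethanol fermentation and low-oxygen response rose at 15W. This group was drawn up after the values had been seen. Of 22 tested members 15 rose and 1 fell, and the median log2 change was 0.736, and the summed level was 10550, 11470 and 11330 CPM at 15W, against 6481, 6281 and 6318 CPM at 13W. Every 15W library lay above every 13W library.

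Pyruvate decarboxylase commits pyruvate to ethanol. A thiamine pyrophosphate enzyme of this family (Jr5SG00170900, chromosome 5S, 30551118 to 30553673) had 1490.4, 1659 and 1654 CPM at 15W, against 126, 133 and 112 CPM at 13W, a fitted level 12.9-fold higher (log2 change 3.69, SE 0.12, adjusted p = 1.67e-16). A related gene on chromosome 5D (Jr5DG00200000) had 527, 608 and 627 CPM at 15W, against 45.2, 38.6 and 33.6 CPM at 13W (log2 change 3.91). The gene named pyruvate decarboxylase 1 (Jr5SG00055200) changed less, with 832, 903 and 895 CPM at 15W, against 429.8, 430.3 and 400.1 CPM at 13W (log2 change 1.06). The 1 member that fell was a second gene of that name with few reads (Jr5DG00063000, 0.618 CPM at 15W, against 1.67 at 13W).

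Alcohol dehydrogenase, which completes the route to ethanol, was carried by 3 neighbouring genes on chromosome 8D. The first (Jr8DG00019400) had 2155, 2144 and 2035 CPM at 15W, against 715, 668 and 677 CPM at 13W (log2 change 1.62, SE 0.07, adjusted p = 2.35e-14). The third (Jr8DG00019600) had 3959.7, 4316 and 4336 CPM at 15W, against 4061, 3979.6 and 3964 CPM at 13W, and did not pass the test (log2 change 0.07, adjusted p = 0.552). The libraries of the stages thus overlapped in the copy with the most reads, and the first copy made up most of the difference in the summed level of the 3 genes (6327 CPM at 15W, against 4693 at 13W). Neighbouring copies may share reads.

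Plant cysteine oxidases are the oxygen sensors that mark group VII ethylene response factors for breakdown, and some are themselves hypoxia-inducible in *Arabidopsis*. All 6 in the group rose. The gene with the largest change (Jr5DG00158900) had 213, 286 and 272 CPM at 15W, against 52.5, 47.4 and 56.5 CPM at 13W (log2 change 2.30, SE 0.12, adjusted p = 1.08e-12). An alanine aminotransferase (Jr1SG00132500), which stores carbon from pyruvate as alanine, had 449.8 ± 19.7 CPM at 15W, against 212 ± 1.05 at 13W (SD, n = 3 each; log2 change 1.09). Other members of the response rose weakly or did not pass the test. A nonsymbiotic hemoglobin (Jr3DG00053400), of a class induced by low oxygen in *Arabidopsis*, had 145, 225 and 195 CPM at 15W, against 263, 229 and 262 CPM at 13W. All 3 values at 15W were below those at 13W, yet the test was not passed (log2 change -0.41, edgeR adjusted p = 0.121, and 0.037 with replicate number as a block). A LOB domain gene 41 (Jr2DG00055800) had a log2 change of 0.50 and was called, but lost the call without single libraries (adjusted p up to 0.09).

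**Figure D3:**
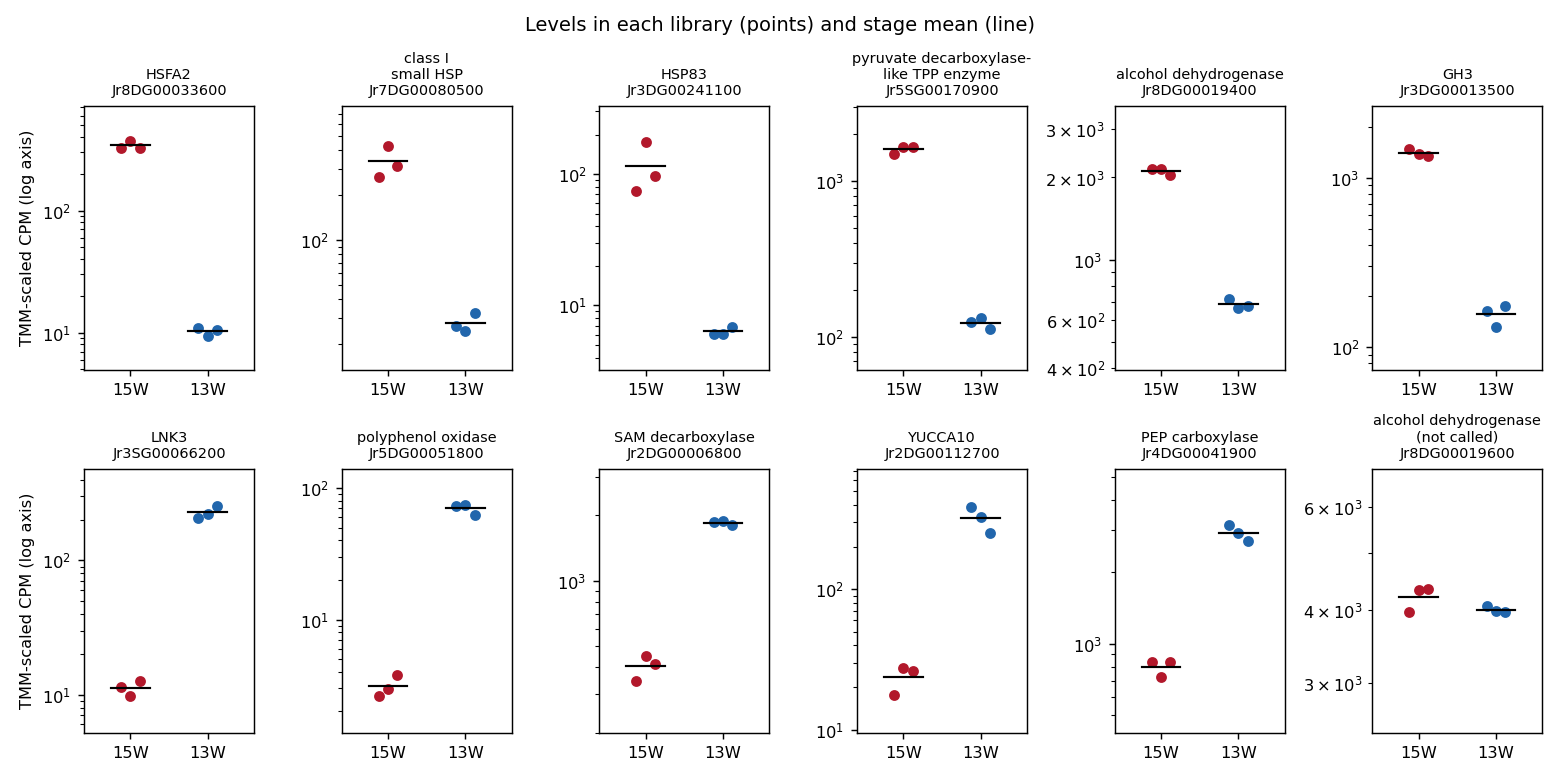
TMM-scaled CPM (log axes) of 12 genes in each library (points) with the stage mean (line), 15W left of 13W in each panel. The libraries of the stages do not overlap in 11 genes, among them HSFA2 with 325 to 374 CPM at 15W and 9.46 to 10.8 CPM at 13W, while the third alcohol dehydrogenase gene overlaps.

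The enzymes that feed the route were followed step by step from sucrose to ethanol. The glycolysis and fermentation groups were drawn up after the values had been seen, so the counts by step are not an independent result. Of 16 steps, the member with the most reads rose in 9, fell in 2 and did not pass the test in 5. Of the 63 genes of these steps with at least 10 CPM at either stage 27 rose and 15 fell. The shares over the 13794 genes tested that reached the same level were 30.7% and 30.6%. The 63 include sucrose synthase, pyruvate decarboxylase and alcohol dehydrogenase, and leave out genes named as plastid, chloroplast or NADP-dependent. In the whole glycolysis list 22 of 69 tested genes rose and 17 fell (background 24.8% and 26.3%). The median log2 change of that list was 0.06. Sucrose synthase 1 (Jr4DG00122100), which splits sucrose while saving ATP, had 3468, 3129 and 3201 CPM at 15W, against 1643, 1585 and 1593 CPM at 13W (log2 change 1.02, SE 0.08, adjusted p = 7.47e-10).

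Phosphofructokinase, the main regulated step, rose in part. Of 7 tested ATP-dependent genes 3 rose and none fell, and of 5 tested pyrophosphate-dependent genes 2 rose and 2 fell. An ATP-dependent gene (Jr4SG00027600) had 515 ± 31.4 CPM at 15W, against 215 ± 7.26 at 13W (SD, n = 3 each; log2 change 1.26). An alpha subunit of the pyrophosphate-dependent enzyme (Jr4DG00139300), which spares ATP, had 192 ± 9.82 CPM at 15W, against 58.3 ± 8.73 at 13W (log2 change 1.72). Its beta subunit (Jr5SG00073700) had 147 ± 4.06 CPM at 15W, against 157 ± 2.87 at 13W, and did not pass the test (log2 change -0.10). Further down, a glyceraldehyde-3-phosphate dehydrogenase (Jr3SG00113600) had 4513, 4192 and 4341 CPM at 15W, against 2663, 2761 and 2584 CPM at 13W (log2 change 0.70) and gained more CPM than all but 1 of the called genes with a product name.

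Other steps did not rise with them. Cytosolic glucose-6-phosphate isomerase (Jr8DG00077400) and triosephosphate isomerase (Jr7DG00091100), reversible steps with 1 tested gene each, fell, with log2 changes of -0.22 and -0.38. The aldolase with the most reads (Jr5DG00007800) did not pass the test (log2 change 0.06). Phosphoenolpyruvate carboxylase (Jr4DG00041900), which draws carbon off glycolysis towards organic acids, fell to 840.5, 728 and 837 CPM at 15W, against 3133, 2913 and 2681 CPM at 13W. With a log2 change of -1.86 (SE 0.13, adjusted p = 2.63e-11) it had the largest loss in CPM of any called gene with a product name.

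**Figure D4:**
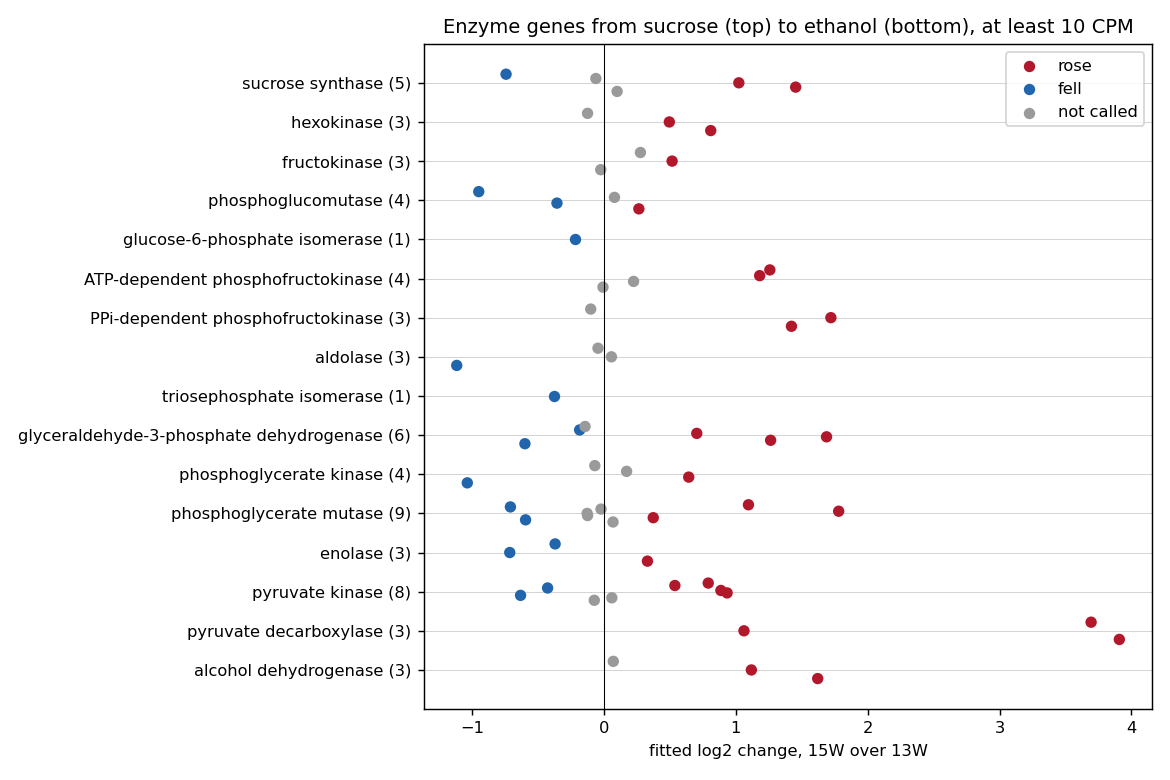
Fitted log2 change of 15W over 13W (x axis) of the genes with at least 10 CPM at either stage, by enzyme step from sucrose (top) to ethanol (bottom), coloured by call. Pyruvate decarboxylase stands out with 3 of 3 genes higher and log2 changes up to 3.91, while the called genes of the isomerases and aldolase lie below 0.

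Clock genes leaned downwards at 15W. Of 30 tested, 15 fell (background 26.3%), 8 by at least 2-fold, and 8 rose (background 24.8%), with a median log2 change of -0.214. LNK3 on chromosome 3S (Jr3SG00066200), of a family of clock co-activators in *Arabidopsis*, had 11.4, 9.78 and 12.7 CPM at 15W, against 205, 223 and 256 CPM at 13W, a fitted level 20.2-fold lower (log2 change -4.34, SE 0.13, adjusted p = 3.92e-16). Its homologue on chromosome 7S (Jr7SG00012200) moved the other way, with 1022 ± 88.2 CPM at 15W, against 748 ± 28 at 13W (SD, n = 3 each; log2 change 0.45).

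Morning-phased MYB genes split. One REVEILLE 1 gene (Jr2DG00070000), which links the clock to auxin in *Arabidopsis*, had 113, 119 and 114 CPM at 15W, against 366, 360.1 and 377 CPM at 13W (log2 change -1.68), and fell. The other (Jr2SG00047100) rose, with 77 ± 8.71 CPM at 15W, against 59.4 ± 3.13 at 13W (log2 change 0.38), as did REVEILLE 5 (Jr1DG00068400; log2 change 0.49), whereas REVEILLE 8 (Jr5DG00172600) fell (log2 change -0.33). The 3 genes of the morning repressor LHY (Jr1DG00089700, Jr1SG00053700 and Jr1SG00053800) had log2 changes of -0.66, -1.10 and -0.86. Cyclic dof factor 1 (Jr3DG00120200), a repressor of flowering-time genes under clock control, fell to 6.45 ± 0.182 CPM at 15W, against 58.3 ± 1.84 at 13W (SD, n = 3 each; log2 change -3.18). The evening gene TOC1 (Jr6DG00046500) fell less (log2 change -0.44). The 2 PRR5 genes diverged, with log2 changes of -1.06 (Jr3SG00045800) and 0.43 (Jr3DG00192400).

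Over the 7 stages, the difference between 15W and 13W was not a step in a steady course. HSFA2 averaged 294 in week 8, 20.7 in week 9, 396 in week 11, 10.2 in week 13, 342 in week 15, 27.1 in week 17 and 153 in week 19, in CPM. The pyruvate decarboxylase-like gene Jr5SG00170900 averaged 21.9 in week 8, 78.2 in week 9, 2092 in week 11, 124 in week 13, 1601 in week 15, 66 in week 17 and 914 in week 19, and the alcohol dehydrogenase Jr8DG00019400 averaged 209 in week 8, 352 in week 9, 1934 in week 11, 687 in week 13, 2111 in week 15, 61.5 in week 17 and 1609.8 in week 19. All 3 were high at 11W, 15W and 19W and low at 9W, 13W and 17W. LNK3 (Jr3SG00066200) averaged 4.28 in week 8, 527 in week 9, 5.18 in week 11, 228 in week 13, 11.3 in week 15, 2.6 in week 17 and 14.9 in week 19, with its highest levels at 9W and 13W. The summed small heat shock proteins were 1036 ± 53.4 CPM in week 8, 180.6 ± 12 in week 9, 2168 ± 513 in week 11, 286.3 ± 28.6 in week 13, 1843 ± 514 in week 15, 623 ± 86.4 in week 17 and 1169 ± 196 in week 19 (SD, n = 3 each).

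**Figure D5:**
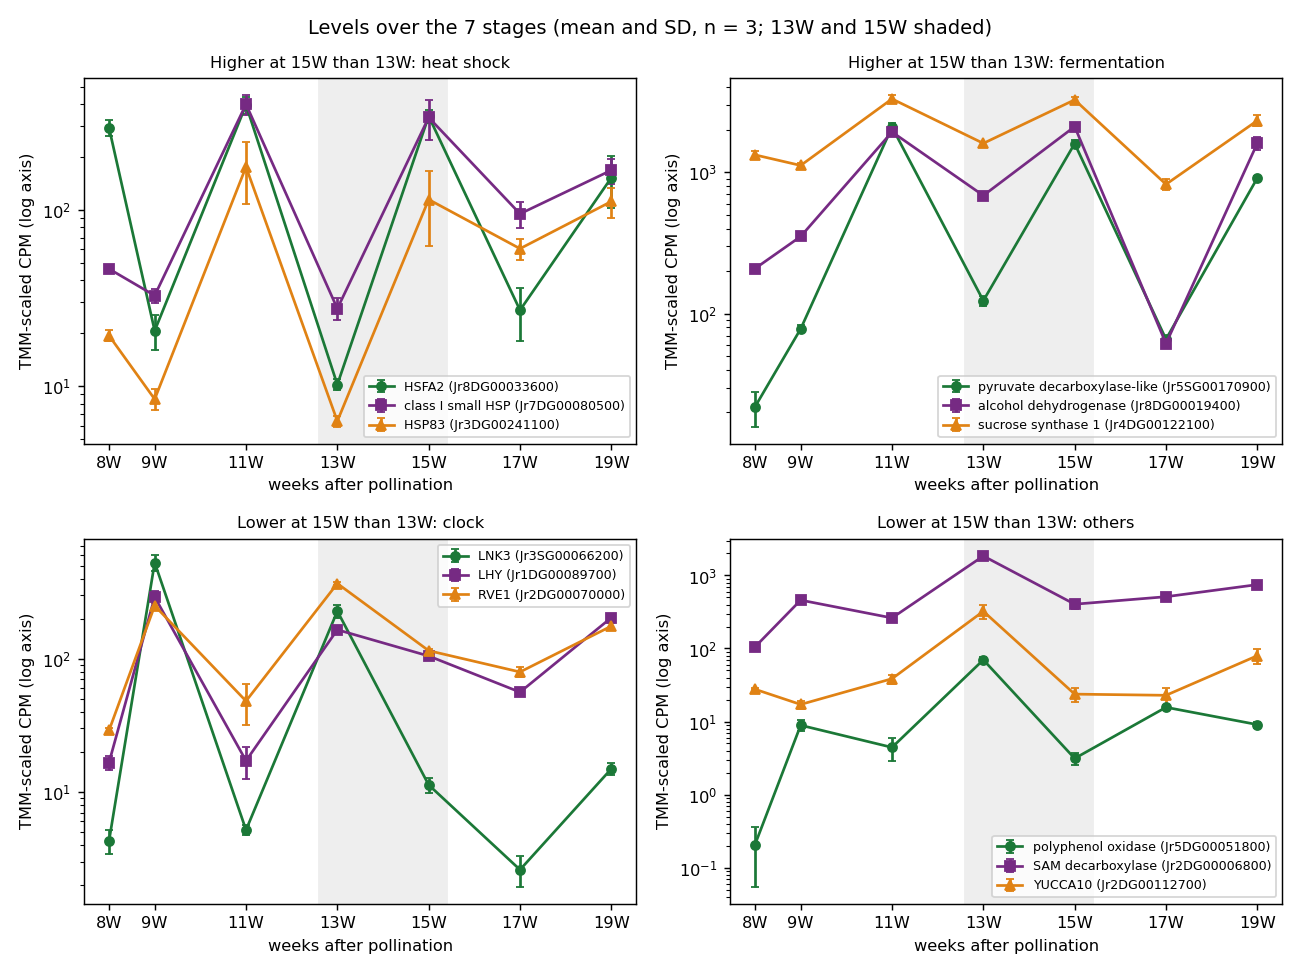
Mean TMM-scaled CPM (log axes, error bars SD, n = 3) over the 7 stages in weeks after pollination for 3 genes in each of 4 panels, with 13W and 15W shaded. Heat shock and fermentation genes are lower at 9W, 13W and 17W than at 11W, 15W and 19W, while the polyphenol oxidase, S-adenosylmethionine decarboxylase and YUCCA10 genes are highest at 13W.

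The translation machinery was lower at 15W by small amounts spread over many genes. Of 321 ribosomal protein genes 149 fell and 41 rose, and the median log2 change was -0.218, and 4 fell by 2-fold or more. Their sum was 19300, 19800 and 20150 CPM at 15W, against 23540, 24680 and 24680 CPM at 13W, with no overlap. The fall was found in genes named as cytosolic, of which 132 of 213 fell and 15 rose (median log2 change -0.334). Among the plastid genes 6 of 46 fell and 11 rose, and among the mitochondrial ones 2 of 16 fell and 6 rose. The difference between these classes was not tested. The acidic stalk protein P0 (Jr1SG00181000) fell most among members with at least 10 CPM, with 72.9, 86.3 and 87.7 CPM at 15W, against 201, 216 and 229 CPM at 13W (log2 change -1.39). Subunits of the proteasome, which degrades tagged proteins, followed the same direction: 40 of 87 fell and 11 rose, and the median log2 change was -0.188 and a sum of 6032 ± 113.1 CPM at 15W, against 6936 ± 61.3 at 13W (SD, n = 3 each). The largest of these falls was that of proteasome activator subunit 4 (Jr6SG00141100; log2 change -0.90).

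Genes of polyamine synthesis, a group also drawn up after the values had been seen, were split evenly by count (6 of 20 rose and 6 fell) but not by level. The group was taken by product name. Its rises include genes named polyamine oxidase 4 (Jr2DG00071600 and Jr2SG00048200, log2 changes 0.21 and 0.36), so the count does not describe synthesis alone. The sum of the group was 952.6, 1123 and 1055 CPM at 15W, against 3783, 3884 and 3637 CPM at 13W. The difference came from S-adenosylmethionine decarboxylase, which supplies the aminopropyl groups. Gene Jr2DG00006800 had 347, 452 and 414 CPM at 15W, against 1864, 1884 and 1799 CPM at 13W (log2 change -2.19, SE 0.09, adjusted p = 2.33e-15). Gene Jr8DG00151500 had 171, 199 and 195 CPM at 15W, against 1483, 1573 and 1397 CPM at 13W (log2 change -2.98). The 3 genes for thermospermine synthase ACAULIS5, which limits xylem differentiation in *Arabidopsis*, also fell, with log2 changes of -4.42 (Jr1SG00107600), -3.26 (Jr1DG00180700) and -2.68 (Jr8DG00097500). Spermidine synthases at 10 CPM or more had log2 changes between -0.16 (Jr3SG00012800) and 0.31 (Jr3DG00233900).

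Hormone genes differed by pathway. Of 31 abscisic acid genes 14 rose and 7 fell, and the median log2 change was 0.594. An ABI5-like transcription factor (Jr3SG00171200), of the family that carries out the abscisic acid response in seeds, had 296, 293 and 271 CPM at 15W, against 95.3, 85 and 87.8 CPM at 13W (log2 change 1.68, SE 0.09, adjusted p = 2.52e-13). The receptor PYL2 (Jr8DG00035800) had 35.2 ± 2.81 CPM at 15W, against 16.8 ± 1.54 at 13W (SD, n = 3 each). The catabolic enzyme abscisic acid 8'-hydroxylase 1 (Jr6DG00090000) rose as well, with 455 ± 93.6 CPM at 15W, against 268 ± 36.4 at 13W.

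Of 116 auxin genes 46 fell and 22 rose, and the median log2 change was -0.271, yet their summed level was higher, at 16520 ± 354 CPM at 15W, against 13430 ± 514.4 at 13W (SD, n = 3 each). YUCCA10 (Jr2DG00112700), of the enzyme family that makes auxin from indole-3-pyruvate, fell to 17.7, 27.5 and 26 CPM at 15W, against 389, 331 and 251 CPM at 13W (log2 change -3.77, SE 0.23, adjusted p = 1.35e-09). A GH3 gene (Jr3DG00013500), of the family that conjugates hormones with amino acids, rose to 1465, 1370.1 and 1334 CPM at 15W, against 164, 132 and 173 CPM at 13W (log2 change 3.15, SE 0.20, adjusted p = 7.19e-10). The repressor gene IAA26-like (Jr1DG00241400) fell (log2 change -2.48). A gene of the same name series with more reads, IAA29 (Jr4DG00217000), was higher, with 3304 ± 40.9 CPM at 15W, against 2069 ± 64.7 at 13W. Among the members with many reads that rose was the auxin-repressed 12.5 kDa protein (Jr5SG00048000), with 2964 ± 176 CPM at 15W, against 1762 ± 127 at 13W.

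Of 35 gibberellin genes 14 fell and 4 rose, and the median log2 change was -0.535. The list includes the snakins, gibberellin-regulated antimicrobial peptides, and these split: snakin-2-like (Jr6DG00029400) had 32.6, 29.5 and 26 CPM at 15W, against 228, 201 and 273 CPM at 13W, and snakin-1 (Jr3DG00013800) had 57.2 ± 2.57 CPM at 15W, against 7.3 ± 1.16 at 13W (SD, n = 3 each). Of 27 jasmonate genes 11 fell and 4 rose (2 without the first 13W library). Ethylene genes rose in 15 of 41 and fell in 10. ACC oxidase makes ethylene in the last step of its synthesis. One such gene (Jr5SG00074300) had 25.6, 45.7 and 36.8 CPM at 15W, against 274, 232 and 296 CPM at 13W (log2 change -2.89), while another (Jr2SG00153500) had 31.5, 36.6 and 27.5 CPM at 15W, against 3.5, 6.78 and 5.79 CPM at 13W (log2 change 2.58). A strigolactone esterase gene, DAD2 (Jr4DG00175600), named after the petunia receptor, fell to 1.69 ± 0.947 CPM at 15W, against 33.7 ± 3.81 at 13W (log2 change -4.32). Cytokinin genes lay near the background for falls, with 15 of 50, and below it for rises, with 7.

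Phenolic pathways, for which pellicles are known, had counts near or below the background shares. Of 70 phenylpropanoid and monolignol genes 14 rose and 21 fell, of 30 flavonoid genes 3 rose and 7 fell, and of 52 shikimate genes 14 rose and 7 fell. The clear change was in polyphenol oxidase, the enzyme of browning. Gene Jr5DG00051800 had 2.6, 2.98 and 3.79 CPM at 15W, against 72.9, 74.1 and 62.7 CPM at 13W, a fitted level 22.3-fold lower (log2 change -4.48, SE 0.19, adjusted p = 8.26e-15). The other of the 2 polyphenol oxidase genes tested was near 0 at both stages and did not pass the test.

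Within the flavonoid route, a naringenin-chalcone synthase (Jr1SG00082400), its entry enzyme, fell to 39.9 ± 15.2 CPM at 15W, against 102 ± 24.7 at 13W, and a leucoanthocyanidin reductase (Jr8SG00002900) fell to 9.24 ± 1.14 CPM, against 23 ± 1.45 (SD, n = 3 each). The count of flavonoid genes that fell was 4 without the first 15W library or the third 13W library. Genes of the serine carboxypeptidase-like and BAHD list fell in 20 of 55 and rose in 7, with a median log2 change of -0.493. These families include acyltransferases that decorate phenolics. The list was taken by product name, however, and also holds genes named as carboxypeptidases, such as an S28 family member (Jr4DG00060400). Which members act on phenolics was not tested. Carboxypeptidase-like 35 (Jr3DG00159100) had 8.72, 8.36 and 9.28 CPM at 15W, against 94.3, 93 and 98 CPM at 13W (log2 change -3.44), and carboxypeptidase-like 48 (Jr7DG00124400) had 46.8 ± 13.9 CPM at 15W, against 301 ± 116 at 13W. In monolignol synthesis, a cinnamoyl-CoA reductase (Jr3SG00037300) rose to 52.6 ± 8.19 CPM at 15W, against 10.4 ± 0.535 at 13W, and caffeoylshikimate esterase (Jr4DG00120000) fell to 7.55 ± 0.725 CPM, against 32.3 ± 4.07.

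Wall-building genes leaned upwards at 15W. Of 104 cellulose and secondary wall genes 38 rose and 14 fell, and the median log2 change was 0.151. A cellulose synthase 2 gene (Jr2SG00085000), which spins the main wall polymer, had 68.2, 82.8 and 80.8 CPM at 15W, against 21, 25.8 and 19.5 CPM at 13W (log2 change 1.81, SE 0.12, adjusted p = 4.54e-11). Its neighbour (Jr2SG00084800) had a log2 change of 2.01, and a glucuronoxylan glucuronosyltransferase (Jr5DG00033000), an enzyme of secondary wall xylan, had 54.5 ± 4.26 CPM at 15W, against 16.3 ± 1.92 at 13W (SD, n = 3 each). Of 68 genes that loosen or rearrange walls 25 rose and 14 fell. Expansin A1 (Jr6DG00045100) had 138, 134 and 143 CPM at 15W, against 14.4, 14.8 and 14.2 CPM at 13W (log2 change 3.26), and expansin A4 (Jr1DG00290800) the reverse, with 1.02 ± 0.34 CPM at 15W, against 15.4 ± 7.21 at 13W. Pectin-modifying genes rose in 22 of 96 and fell in 30.

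Surface and storage lipid genes showed single large changes. Of 58 cutin, suberin and wax genes 19 rose and 16 fell. A long-chain acyl-CoA synthetase 1-like gene (Jr4DG00129500), of a class that activates wax and cutin precursors in *Arabidopsis*, had 455, 362 and 423 CPM at 15W, against 61.9, 58.1 and 42.8 CPM at 13W (log2 change 2.93, SE 0.13, adjusted p = 7.2e-13). Rises were rarer in fatty acid and triacylglycerol synthesis (8 of 65 genes, background 24.8%) than falls (17 genes, background 26.3%). The middle value of their log2 changes was -0.118, and 14 rose when the 6 libraries were fitted alone. The summed level was somewhat higher, at 2969 ± 107.8 CPM at 15W, against 2661 ± 151.2 at 13W. A single large rise was that of a microsomal omega-3 desaturase (Jr7DG00071700), which makes linolenic acid. It had 579 ± 74.1 CPM at 15W, against 216 ± 30.1 at 13W (SD, n = 3 each; log2 change 1.42). GDSL esterases and lipases fell in 17 of 60 and rose in 9.

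Sugar metabolism outside glycolysis was reshuffled. Of 123 sucrose and starch genes 50 fell and 31 rose, with a median log2 change of -0.182. Their summed level was nevertheless higher, at 13880 ± 258.1 CPM at 15W, against 12460 ± 317.1 at 13W (SD, n = 3 each). Of 38 raffinose family and trehalose genes, a group drawn up after the values had been seen, 13 rose and 18 fell, and 11 and 10 of them by at least 2-fold. Trehalose-phosphate phosphatase J (Jr2DG00127400), which removes the sugar signal trehalose 6-phosphate, had 180.3, 227 and 204 CPM at 15W, against 11.6, 9.88 and 12 CPM at 13W (log2 change 4.19, SE 0.20). Galactinol synthase 2 (Jr4DG00033200), the first enzyme of raffinose synthesis and a heat shock factor target in *Arabidopsis*, had 153, 108 and 123 CPM at 15W, against 22.3, 21.9 and 12.3 CPM at 13W (log2 change 2.76). A member with many reads moved down: a galactinol-sucrose galactosyltransferase (Jr5SG00030200) had 628 ± 23 CPM at 15W, against 1304 ± 15.2 at 13W. The sucrose exporter SWEET10-like (Jr6SG00012100) rose to 359 ± 10.2 CPM at 15W, against 118 ± 32.2 at 13W (SD, n = 3 each), while 8 of 40 sugar transporters rose and 10 fell.

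Photosynthesis and cell division genes mark green and dividing tissue. Of 55 photosynthesis genes 10 rose and 18 fell (11 without the first 15W library), but the summed level was higher, at 2003 ± 58.9 CPM at 15W, against 1404 ± 55.7 at 13W (SD, n = 3 each). A gain as large as that of the whole sum was seen in Rubisco activase (Jr5SG00162700), a chaperone of the carbon-fixing enzyme, with 822, 701 and 758 CPM at 15W, against 145, 143 and 141 CPM at 13W (log2 change 2.41). The antenna protein CP24 (Jr3SG00156900) had 141 ± 10.4 CPM at 15W, against 6.51 ± 1.43 at 13W, whereas oxygen-evolving enhancer protein 1 (Jr1DG00026900) fell (log2 change -1.27). Of 196 mitosis and replication genes 65 fell and 19 rose, and the median log2 change was -0.27, among them cyclin-D2-1 (Jr1SG00021600), which admits cells to division, with 6.84 ± 1.22 CPM at 15W, against 18.8 ± 9.46 at 13W.

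Transcription factor families other than the heat shock factors were closer to the background. MYB genes rose in 35 of 135 and fell in 39, NAC genes rose in 21 of 78 and fell in 22, and WRKY genes rose in 14 of 59 and fell in 12. Basic helix-loop-helix genes leaned downwards, with 38 of 105 lower and 18 higher and a median log2 change of -0.393. The MYB79 gene (Jr1DG00191900) had 21.9, 20 and 18.8 CPM at 15W, against 0.0685, 0 and 0.0697 CPM at 13W, which were 822 and 2 reads. The ratio of pooled read rates was 436, with an exact Poisson interval at 95% confidence of 121 to 3600. WRKY40 (Jr1DG00262300), a defence and abscisic acid regulator in *Arabidopsis*, had 153 ± 12.8 CPM at 15W, against 36.9 ± 18.3 at 13W (SD, n = 3 each; log2 change 2.05). AINTEGUMENTA-type growth regulator Jr4SG00051100 fell to 0.618 ± 0.136 CPM at 15W, against 10.6 ± 0.394 at 13W, and bHLH155 (Jr2SG00187100) to 38 ± 0.46 CPM, against 194 ± 4.4.

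The largest single changes lay partly outside these groups. Salicylate O-methyltransferase (Jr4DG00050100), which makes the volatile methyl salicylate, had 55.1, 23 and 50.7 CPM at 15W, against 0.137, 0.0706 and 0 CPM at 13W. That is 1728 and 3 reads, a ratio of pooled read rates of 610.0 with a counting interval of 209 to 2960. The fitted log2 change of 9.10 was 9.95 without the first 13W library. A 2-oxoglutarate dependent oxygenase (Jr6DG00116600) had 29.5 ± 3.32 CPM at 15W, against 0.558 ± 0.192 at 13W. Transporter NPF7.3 (Jr7SG00015300), a nitrate and potassium loader of xylem in *Arabidopsis*, rose to 117 ± 9.35 CPM at 15W, against 5.9 ± 1.02 at 13W (SD, n = 3 each; log2 change 4.30). In the other direction, a polyvinylalcohol dehydrogenase gene (Jr3DG00124500) had 0 reads at 15W and 541 at 13W, at least 56.8-fold lower against a floor of 3 reads per library, and lost its call when the 6 libraries were fitted alone (edgeR adjusted p = 0.0864). GDSL esterase 7 (Jr2SG00049700) fell (log2 change -5.06, and -7.16 without the third 15W library), as did the subtilisin-like protease SBT2.4 (Jr5SG00073100), named after an *Arabidopsis* protease of embryo cuticle formation, with 0.0765, 2.83 and 2.38 CPM at 15W, against 50, 83.6 and 17.7 CPM at 13W. The counting intervals and read floors cover counting error only.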

How the data were processed

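For each gene the deposited table gives raw read counts of every library, not normalized by the authors, and FPKM values that the authors derived from them (checked, largest relative deviation 5.15e-15) and that were not tested. FastQC, HISAT2, Cufflinks and DESeq2 appear in the submitters' processing notes. No source used here names the build, annotation, counter or strand setting, so near-identical copies and overlapping or antisense genes may share reads.

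Counts of all 21 libraries were fitted together with 1 coefficient per stage (edgeR 4.0.16 with limma 3.58.1, R 4.3.3), which pools the spread over stages (biological coefficient of variation 0.102). The settings were filterByExpr at a count of 10, TMM factors and robust quasi-likelihood, with a two-sided test at a Benjamini-Hochberg adjusted p of 0.05. The standard error is the size of the log2 change divided by the square root of F. Replicate pairs differed beyond sampling noise (chi-square per degree of freedom 3.95 to 12.8), and none was merged.

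Product names came from NR for 16811 genes and Swiss-Prot for 6716, and 7898 genes had none. The 47 lists, and the 7 families and 4 added groups, were chosen with earlier results of these data known. The groups for fermentation, glycolysis, polyamines and raffinose or trehalose followed the values of this comparison. Named genes were the 15 largest called rises and falls with 10 CPM at the higher stage and no overlap, the 10 largest gains and losses in CPM, the 3 largest changes and 2 members with most reads of each list, and clock and kernel storage genes at 10 CPM. Heat shock family and added group members outside this rule, the proanthocyanidin genes of the tissue check and the pyruvate decarboxylase with few reads were chosen after their values were seen.

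Alternatives were RLE and upper-quartile factors, library sizes alone, DESeq2 1.42.0, other filters, a replicate block, the 6 libraries alone, a non-robust fit and leaving out each library.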

Additional observations from a re-analysis of the deposited data

How the results depend on the processing

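Across the 15 alternatives that were run, the number of genes called at 15W against 13W stayed within 1.5 times of 11086. The number of genes called was 11093 with RLE factors, 11109 with upper-quartile factors, 11138 with library sizes alone, 11340 with DESeq2, 10876 without a filter beyond 1 read, 11029 with a filter of 1 CPM in 3 libraries, 11001 with the 6 libraries alone and 11173 without robust fitting, and 9965 to 10208 when single libraries were left out. No gene called both under one of these and in the fit reported had opposite signs in them. Replicate numbers did not pair the libraries: the correlations of same-numbered deviations were -0.0176, -0.0656 and -0.0426, and with replicate number as a block 11032 genes were called. Of 535 named genes, 80 lost or gained their call under some alternative, and none changed direction while called. Of the list counts, 1699 stayed within 1.5 times and 41 did not, mostly counts of 5 or fewer.

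The spread was set by 3 libraries a stage. Genes with few reads at 1 stage have wide intervals. Since 51.1% of all genes tested were called, a list can hold many calls without standing apart. Among printed counts above 5, leaving out 1 library moved those of falling flavonoid and photosynthesis genes by over 1.5 times.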

Other observations

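Several gene groups not described above had a share of falling members near that over all genes tested (26.3%), and a share of rising members near or below the 24.8% over all genes tested. Antioxidant and redox genes rose in 27 and fell in 26 of 118, receptor-like kinases fell in 112 and rose in 68 of 392, proteases fell in 35 and rose in 21 of 121, and aquaporins fell in 6 and rose in 3 of 21. Among the 10 largest gains in CPM were a pair of metallothionein genes, for small metal-binding proteins: a type 3 gene (Jr6SG00120300) had 6499 ± 72.2 CPM at 15W, against 4796 ± 168 at 13W, and a type 2 gene (Jr7DG00092000) had 3493 ± 67.2 CPM at 15W, against 2386 ± 146 at 13W (SD, n = 3 each). Among glutathione transferases and MATE transporters 20 of 63 fell and 8 rose, and a glutathione S-transferase (Jr4SG00067300) rose to 19.1 ± 2.79 CPM at 15W, against 1.2 ± 0.409 at 13W. Of 122 calcium signalling genes 41 fell and 24 rose, with a calmodulin-like gene, CML35 (Jr5DG00040500), at 56.7 ± 4.61 CPM at 15W, against 237 ± 18 at 13W.

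The largest fall among the named receptor-like kinases was that of HSL1 (Jr5DG00059600), of a family of peptide receptors, with 15.4 ± 2.98 CPM at 15W, against 108 ± 36.6 at 13W. Pathogenesis-related genes fell in 34 of 104 and rose in 19. Cytochrome P450 genes fell in 29 of 96 and rose in 19, with a 711A1-like gene (Jr8DG00033500), of the strigolactone synthesis family, at 128 ± 5.24 CPM at 15W, against 9.02 ± 0.558 at 13W (SD, n = 3 each). Amino acid and mineral transporters fell in 68 of 222 and rose in 52.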
